A study of Mus musculus with 6 samples.

Results

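Genes for cholesterol synthesis, lipoprotein receptors and lipid handling were followed in single microglia and neural stem and precursor cells (NSPCs) of the mouse subventricular zone (SVZ) before and after a cortical stroke. The set holds 35 genes of the 34203 gene rows in the count matrix, chosen by name for their known functions. Of these, 13 genes encode enzymes of sterol synthesis, 5 control that synthesis, 5 are lipoprotein receptors, 5 serve sterol efflux and storage, 4 make fatty acids and 3 are lipid carriers or droplet proteins.

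The adult brain makes nearly all of its own cholesterol, because lipoproteins of the blood do not cross the blood-brain barrier. The mevalonate pathway builds isoprene units, joins them into squalene and closes the ring that becomes lanosterol and then cholesterol. SREBP transcription factors, encoded by Srebf1 and Srebf2, switch these enzymes on when sterol in the endoplasmic reticulum is low, with Scap as their escort and the Insig proteins as their anchor. Excess sterol is esterified or passed by ABC transporters to apolipoprotein E particles, which other cells take up through receptors of the Lrp family. Microglia handle sterol from engulfed cells and myelin, and dividing neural precursors need sterols and fatty acids for new membrane.

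Promoter windows are printed for 4 of the members called between the classes below, as examples among those with a window. Fdft1, Fdps, Scd2 and Fabp5, whose levels did not overlap between the classes, had no window. Hmgcs1 (the synthase of the first committed mevalonate intermediate), Idi1 (isomerase of the isoprene units) and Msmo1 (sterol C4-methyl oxidase) are synthesis enzymes, and Abca1 exports sterol to apolipoproteins. The windows run from 250 bases before to 50 bases after a RefSeq transcription start in build GRCm38.p6, which is not the build the counts were made with. Capitals mark the letters TCACNCCAC (a sterol regulatory element) and CCAAT (the box bound by NF-Y), read on either strand. The windows lie at chr13:119690101-119690400 (plus strand) for Hmgcs1, chr13:8885356-8885655 (plus strand) for Idi1, chr8:64733529-64733828 (minus strand) for Msmo1 and chr4:53159846-53160145 (minus strand) for Abca1.
Hmgcs1: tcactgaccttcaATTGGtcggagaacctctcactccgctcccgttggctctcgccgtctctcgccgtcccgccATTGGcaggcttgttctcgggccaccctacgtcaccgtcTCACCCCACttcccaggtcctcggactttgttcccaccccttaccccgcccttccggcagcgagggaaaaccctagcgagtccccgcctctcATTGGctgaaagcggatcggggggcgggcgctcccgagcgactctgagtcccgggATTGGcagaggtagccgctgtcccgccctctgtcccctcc
Idi1: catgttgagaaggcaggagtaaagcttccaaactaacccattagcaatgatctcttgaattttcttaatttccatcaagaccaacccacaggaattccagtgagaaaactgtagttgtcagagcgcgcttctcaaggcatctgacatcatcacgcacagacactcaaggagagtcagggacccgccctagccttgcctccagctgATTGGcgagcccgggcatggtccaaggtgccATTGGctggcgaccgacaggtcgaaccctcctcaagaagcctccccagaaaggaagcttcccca
Msmo1: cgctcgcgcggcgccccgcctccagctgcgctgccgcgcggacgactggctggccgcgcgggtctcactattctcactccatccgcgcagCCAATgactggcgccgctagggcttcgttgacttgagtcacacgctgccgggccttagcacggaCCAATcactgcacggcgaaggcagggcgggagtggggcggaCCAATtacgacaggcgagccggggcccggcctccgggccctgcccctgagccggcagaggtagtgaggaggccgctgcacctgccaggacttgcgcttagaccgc
Abca1: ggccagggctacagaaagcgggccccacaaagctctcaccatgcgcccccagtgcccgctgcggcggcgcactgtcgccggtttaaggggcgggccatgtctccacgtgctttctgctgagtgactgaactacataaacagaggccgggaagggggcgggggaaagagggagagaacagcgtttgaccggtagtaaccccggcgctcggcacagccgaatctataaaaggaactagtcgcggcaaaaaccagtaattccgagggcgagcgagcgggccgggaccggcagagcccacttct
The Hmgcs1 window held 1 sterol regulatory element, starting at position -137 from the transcription start, and 4 CCAAT boxes. Idi1 held 2 CCAAT boxes and Msmo1 held 3, whereas Abca1 held neither motif. The element TCACNCCAC was rare, in 1.24% of all 32851 windows, while CCAAT stood in 37.4% and the GC box GGGCGG in 35.7%. Windows were found for 27 of the 35 members. Of these 27, only Hmgcs1 held the sterol element, beside 1.44% of 27025 genes. The element thus stood in 1 of the 10 synthesis members with a window and in no member of the other groups. Counted per gene, all 10 synthesis members with a window held a CCAAT box, against 41.1% of 27025 genes, and all 10 held a GC box, against 38.2% of genes. A CCAAT box was found for 4 of 5 control genes, 1 of 4 receptors, 1 of 4 efflux and storage genes, 1 of 2 fatty acid genes and 2 of 2 carriers. The GC box stood in 5 of 5, 3 of 4, 2 of 4, 0 of 2 and 1 of 2 genes of these groups, in the same order. No sterol element overlapped a CCAAT box. These are matches of letters and not measured binding sites. No entry was present for Sqle, Fdps, Fdft1, Scarb1, Abcg1, Scd1, Scd2 and Fabp5.

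All mice carried Nestin-CreERT2 and R26-yfp on a C57BL/6 N background, were 8 to 12 weeks old and received tamoxifen, so that cells with Nestin-driven Cre became YFP-positive. Mice were uninjured, or were examined 1 day (PT D1) or 7 days (PT D7) after photothrombosis, a light-induced clot in the cortex. SVZ tissue on the injured side was digested with papain, and how many mice stand behind each library was not stated. YFP+ NSPCs and CD11b+ CD45low microglia were sorted into plates for mCEL-Seq2, a method that counts transcripts by unique molecular identifiers (UMIs), with 2 libraries of 192 wells for each condition. Nothing in the labels states that the paired libraries came from separate mice, so p-values measure the spread between libraries, which may be technical. Condition, plate and mice cannot be told apart.

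Of 658 deposited cells, 54 to 84 per library were microglia and 15 to 61 were NSPCs by the study's clusters, and 20 cells were of a mixed cluster kept out of both. Summed UMIs per library were 294984 to 468186 in microglia and 82504 to 497292 in NSPCs, and a cell held 1001 to 27321 UMIs. Levels are given as counts per 1000000 (CPM), the UMIs of a gene over all UMIs of that class in that library. Genes of 9 microglial markers summed to between 11320 and 19210 CPM in microglia and between 765.9 and 2339 in NSPCs, and 10 NSPC markers to between 196.6 and 660.0 and between 2910 and 3976. The sums set the classes apart, while all 9 and all 10 markers were detected in both. NSPCs with fewer than 3 microglial markers were 6 of 16 and 10 of 59 uninjured. They were 12 of 19 and 33 of 52 at PT D1, then 13 of 15 and 35 of 61 at PT D7. Microglia with fewer than 3 NSPC markers were 65 of 71 and 56 of 84 uninjured. These were 65 of 71 and 69 of 76 at PT D1, then 53 of 54 and 50 of 60 at PT D7. Fits on such cells alone are given below as an alternative. Genes of the choroid plexus stood apart by condition, at 10540 and 4673 CPM in uninjured microglia against 195.7 to 610.2 after PT, and at 1523 and 3815 in uninjured NSPCs against 44.4 to 97.0. Their part in any difference between conditions was not tested. Pairs of libraries shared 47 to 108 well numbers, as plates with the same layout do. A sum over a class cannot tell fewer cells that express a gene from less RNA of it per cell.

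Synthesis genes were higher in NSPCs than in microglia, and efflux genes were higher in microglia. The comparison was made within libraries on summed counts, with edgeR's quasi-likelihood test, TMM scaling and Benjamini-Hochberg adjustment (threshold for a call 0.05). Because the classes were sorted and then clustered on these same transcriptomes, the values describe how far apart they stood. Of 7514 genes tested, 30.0% were called higher in microglia and 29.5% higher in NSPCs. Of the 28 members tested, 7 were called higher in microglia and 13 in NSPCs, with a median log2 difference (microglia over NSPC) of -0.73 beside -0.07 over all genes tested. The 7 members too low to test were Lss, Nsdhl, Dhcr7, Mvd, Nr1h3, Scd1 and Plin2.

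**Figure D1:**
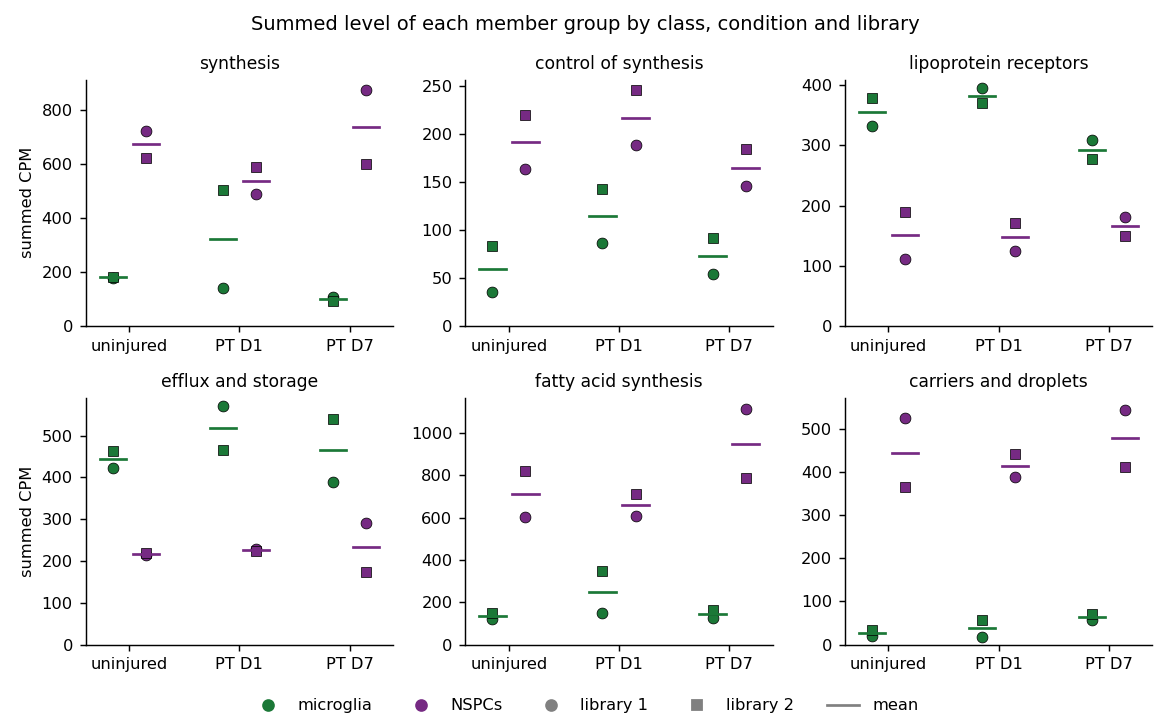
Summed level of each member group in CPM (y axis) for each library by condition (x axis), with microglia and NSPCs in separate colors, 1 point per library and the mean as a line. Synthesis genes of microglia lay at 91.1 to 182 CPM in 5 libraries and at 502 in PT D1 library 2.

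The 13 synthesis genes together reached 487 to 873 CPM in the 6 NSPC libraries and 91.1 to 502 in the 6 microglial libraries. Of the 9 tested, 5 were called higher in NSPCs and none in microglia, and the median log2 difference was -0.89. Hmgcs1 stood at 112 and 143 CPM in uninjured NSPCs, 48.7 and 101 at PT D1, then 121 and 134 at PT D7. In microglia Hmgcs1 stood at 32.9 and 36.3, then 11.1 and 103, then 27.1 and 23.6. The NSPC libraries lay above the microglial ones except for PT D1, where microglia of library 2 overlapped them. The log2 difference of Hmgcs1 was -0.81 (SE 0.28, adjusted p = 0.0119), and the call was lost without uninjured library 2 (adjusted p = 0.101) or PT D7 library 2 (adjusted p = 0.0630). Hmgcs1 also lost its call in cells without 3 or more markers of the other class (-0.58, adjusted p = 0.147), and its difference grew to -1.28 without PT D1 library 2.

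Fdft1, the squalene synthase, separated the classes more clearly. Its NSPC levels were 138 and 86.5 CPM uninjured, 146 and 107 at PT D1, then 169.7 and 101 at PT D7. Its microglial levels were 2.75 and 15.0, then 11.1 and 73.7, then 3.39 and 13.5. All 6 NSPC libraries lay above all 6 microglial libraries, and microglia of PT D1 library 2 came nearest. The log2 difference was -1.85 (SE 0.36, adjusted p = 2.47e-05). In cells with at most 10% mitochondrial UMIs the Fdft1 call was lost, at -0.71 (adjusted p = 0.380). That filter left 2 and 11 NSPCs uninjured, 2 and 15 at PT D1, then 4 and 14 at PT D7. Fewer cells and a lower mitochondrial share therefore cannot be told apart under it, here or for the genes below.

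Idi1, the farnesyl diphosphate synthase gene Fdps and Msmo1 were also called higher in NSPCs, with log2 differences of -1.55, -1.71 and -0.72. Idi1 stood in NSPCs at 103 and 62.3 CPM uninjured, 41.8 and 65.1 at PT D1, then 97.0 and 45.5 at PT D7, and in microglia at 22.0 and 6.41, then 13.9 and 31.3, then 10.2 and 0. Fdps stood in NSPCs at 68.9 and 48.3, then 62.6 and 41.5, then 97.0 and 40.4, and in microglia at 8.23 and 8.54, then 8.34 and 24.6, then 0 and 6.75. Neither gene overlapped between the classes, and each had its highest microglial level in PT D1 library 2. Msmo1 stood in NSPCs at 60.2 and 64.3, then 48.7 and 97.7, then 145 and 55.6, and in microglia at 27.4 and 21.4, then 25.02 and 55.8, then 16.9 and 16.9. Only microglia of PT D1 library 2 reached into the NSPC range of Msmo1. The call of Msmo1 was lost without uninjured library 2, PT D7 library 1 or PT D7 library 2 (adjusted p = 0.119, 0.112 and 0.0545), as it was by DESeq2 (0.0852), without a filter on low counts (0.0731) and in cells without 3 or more markers of the other class (0.0672). Cyp51, the lanosterol demethylase, missed the threshold (log2 difference -0.89, 95% interval -1.67 to -0.11, adjusted p = 0.0532), as did Sqle, Mvk and Sc5d, whose intervals all held 0. The fitted difference of Sc5d was on the microglial side, at 0.33. Without PT D1 library 2, Cyp51 (-1.44, adjusted p = 0.00282) and Sqle (-1.92, adjusted p = 0.000714) were called higher in NSPCs. Cyp51 was also called without PT D1 library 1 (-0.91, adjusted p = 0.0460). Without the microglia of cluster 3 described below, Cyp51 (-1.48, adjusted p = 0.00200), Sqle (-1.96, adjusted p = 0.000561) and Mvk (-1.68, adjusted p = 0.0190) were called, and without TMM scaling the same 3 genes were (adjusted p = 0.00103, 0.00875 and 0.0129). Levels of the synthesis members not listed per library ranged from 0 to 60.3 CPM in microglia and from 6.96 to 68.9 in NSPCs.

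Among the control genes, Srebf2 (log2 difference -1.70, SE 0.35, adjusted p = 6.62e-05) and Srebf1 (-0.74, SE 0.31, adjusted p = 0.0343) were higher in NSPCs. Srebf2 stood in NSPCs at 68.9 and 84.5 CPM uninjured, 55.7 and 85.9 at PT D1, then 12.1 and 96.1 at PT D7, and in microglia at 2.75 and 8.54, then 16.7 and 35.7, then 6.78 and 6.75. NSPCs of PT D7 library 1 thus lay below both PT D1 libraries of microglia. The Srebf2 call was lost in cells without 3 or more markers of the other class (-1.02, adjusted p = 0.0573). Srebf1 stood in NSPCs at 51.6 and 62.3, then 69.6 and 65.1, then 36.4 and 40.4, and in microglia at 5.49 and 25.6, then 25.02 and 26.8, then 13.6 and 20.2, with no overlap. Srebf1 lost its call when any 1 of the 4 uninjured and PT D1 libraries was left out (adjusted p = 0.171, 0.117, 0.0576 and 0.104), by DESeq2 (0.115), without a filter on low counts (0.103) and in cells without 3 or more markers of the other class (0.153). Insig2 was higher in microglia (1.17, SE 0.37, adjusted p = 0.00618), whereas Insig1 and Scap were not called. Insig2 stood in microglia at 13.7 and 29.9, then 16.7 and 35.7, then 30.5 and 27.0, and in NSPCs at 17.2 and 14.1, then 13.9 and 29.6, then 36.4 and 12.6, so that the classes overlapped. Insig2 was not called without TMM scaling, at a difference of 0.48, and was too low to test without the microglia of cluster 3. Insig1 was called higher in NSPCs without TMM scaling (-1.16, adjusted p = 0.0257).

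Lipoprotein receptors did not share a direction. Lrp1, an endocytic receptor for apolipoprotein E and many other ligands, stood in microglia at 258 and 252 CPM uninjured, 289 and 239 at PT D1, then 237 and 192 at PT D7. In NSPCs it stood at 43.0 and 78.4, then 6.96 and 44.4, then 97.0 and 65.7. Every microglial library lay above every NSPC library. The log2 difference was 2.79 (SE 0.25, adjusted p = 1.68e-12).

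Vldlr, a receptor for Reelin and triglyceride-rich lipoproteins, went the other way, with a log2 difference of -1.79 (SE 0.60, adjusted p = 0.0101). It stood at 17.2 and 34.2 CPM in uninjured NSPCs, 20.9 and 14.8 at PT D1, then 36.4 and 20.2 at PT D7. In microglia its levels were 2.75 and 8.54, then 2.78 and 6.70, then 0 in both PT D7 libraries. These microglial levels rest on 9 UMIs in all, yet no NSPC library fell as low. Lrp8, the other Reelin and apolipoprotein E receptor of this pair, stood at 13.7 and 38.5 CPM in uninjured microglia, 16.7 and 22.3 at PT D1, then 13.6 and 10.1 at PT D7. Its NSPC levels were 25.8 and 38.2, then 13.9 and 23.7, then 24.2 and 37.9. The ranges overlapped, on 46 UMIs in microglia and 49 in NSPCs, and the log2 difference of 0.20 (95% interval -0.51 to 0.91, adjusted p = 0.652) did not pass the test. Sorl1, a sorting receptor, was higher in microglia by a log2 difference of 2.01 (SE 0.29). It stood in microglia at 46.7 and 55.5, then 66.7 and 87.1, then 44.1 and 60.7, and in NSPCs at 8.61 and 18.1, then 34.8 and 53.3, then 12.1 and 15.2, where only NSPCs of PT D1 library 2 reached the microglial range. Scarb1, the HDL receptor, was not called at 0.18. Without TMM scaling, Lrp8 and Scarb1 changed sign, to -0.47 and -0.50, and were not called either.

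Efflux and storage genes were all called higher in microglia where tested, in 4 of 4, with a median log2 difference of 1.61. Abca1 stood in microglia at 275 and 318 CPM uninjured, 353 and 319 at PT D1, then 261 and 341 at PT D7. In NSPCs it stood at 94.7 and 131, then 125 and 136, then 133 and 86.0. The classes did not overlap, and the log2 difference was 2.13 (SE 0.20, adjusted p = 4.83e-12). Abcg1, which exports sterol to HDL-like particles, differed by 3.84 (SE 0.37, adjusted p = 1.41e-11), at 32.9 to 87.7 CPM in microglia and 0 to 8.88 in NSPCs. The liver X receptor gene Nr1h2 was also called (adjusted p = 0.000654), and the cholesterol acyltransferase gene Soat1 differed by 0.66. Nr1h2 stood in microglia at 63.1 and 53.4, then 69.5 and 60.3, then 37.3 and 40.5, and in NSPCs at 34.4 and 38.2, then 34.8 and 35.5, then 84.8 and 35.4. NSPCs of PT D7 library 1 were its highest sample, above every microglial library. The Nr1h2 call was lost without TMM scaling (0.40, adjusted p = 0.209) and in cells with at most 10% mitochondrial UMIs (0.84, adjusted p = 0.211). Soat1 lost its call without PT D1 library 1 (adjusted p = 0.0948) or PT D7 library 2 (adjusted p = 0.1696), by DESeq2 (0.0891), in cells with at most 10% mitochondrial UMIs (0.380) and in cells without 3 or more markers of the other class (0.242). It also rested on the scaling, since without TMM its difference was -0.05 and its levels of 29.0 to 80.6 and 42.2 to 72.7 CPM overlapped.

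**Figure D2:**
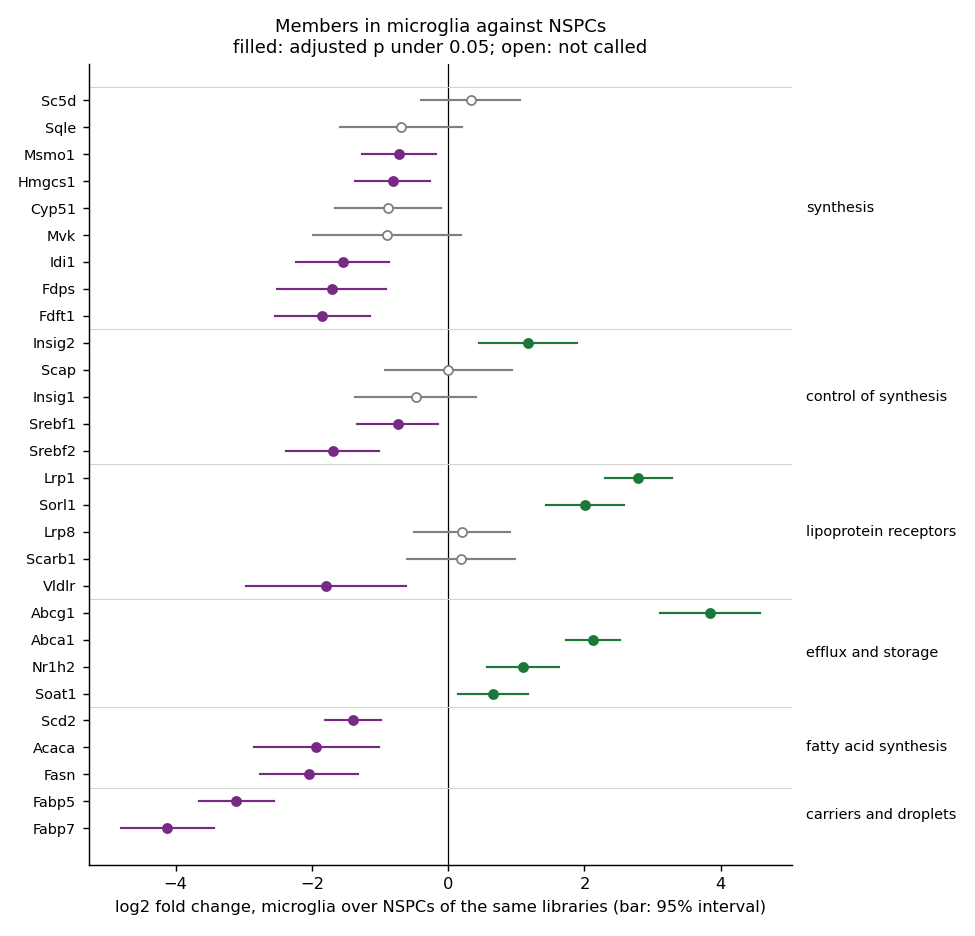
Log2 difference between microglia and NSPCs (x axis) for each of the 28 tested members (y axis), ordered by group, with 95% intervals of 1.96 SE as bars and called members filled. Abcg1 lies farthest towards microglia at 3.84 and Fabp7 farthest towards NSPCs at -4.12.

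Fatty acid genes and carriers were called higher in NSPCs in every member tested, 3 of 3 and 2 of 2. Scd2, a stearoyl-CoA desaturase of the brain, stood in NSPCs at 439 and 689.7 CPM uninjured, 522 and 545 at PT D1, then 933 and 645 at PT D7. Its microglial levels were 104 and 124, then 117 and 308, then 109 and 135. The classes did not overlap, and microglia of PT D1 library 2 were again the highest of their class. The log2 difference was -1.39 (SE 0.21, adjusted p = 3.42e-07). Fasn, the fatty acid synthase, and Acaca, the acetyl-CoA carboxylase, differed by -2.04 and -1.94. Fasn stood in NSPCs at 103 and 90.5, then 34.8 and 79.9, then 158 and 68.2, and in microglia at 0 and 8.54, then 22.2 and 24.6, then 10.2 and 6.75, with no overlap. Acaca stood in NSPCs at 60.2 and 26.1, then 27.8 and 38.5, then 0 and 50.6, and in microglia at 8.23 and 4.27, then 5.56 and 6.70, then 0 and 6.75. Only the NSPCs of PT D7 library 1, with no Acaca UMI, lay within the microglial range. The Acaca call was lost in cells with at most 10% mitochondrial UMIs (-1.86, adjusted p = 0.0774).

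Fabp5 and Fabp7 bind fatty acids in the cytosol. Fabp5 stood at 224 and 241 CPM in uninjured NSPCs, 244 and 249 at PT D1, then 218 and 202 at PT D7. In microglia it stood at 5.49 and 12.8, then 5.56 and 22.3, then 27.1 and 27.0, so that every NSPC library was far above. The log2 difference was -3.11 (SE 0.28, adjusted p = 1.85e-12). Fabp7, known from radial glia, stood at 267 and 115 CPM in uninjured NSPCs, 146 and 169 at PT D1, then 315 and 195 at PT D7. Its microglial levels were at most 16.9 CPM, with none found in PT D1 library 1, where a count of 0 allows up to 8.34. The log2 difference was -4.12 (SE 0.35, adjusted p = 3.05e-13).

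Without any test, 10 members had all 6 NSPC libraries above all 6 microglial ones on the CPM scale, and 3 (Lrp1, Abca1 and Abcg1) had the reverse. The share of all genes whose libraries stood apart in this way was not counted. These counts therefore describe the members and do not set them apart from other genes. Removing the TMM scaling moved the median of all genes to -0.77. With library totals alone, Lrp1 (2.09), Sorl1 (1.32), Abca1 (1.41) and Abcg1 (3.17) were still called higher in microglia, and 17 members were called higher in NSPCs.

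**Figure D3:**
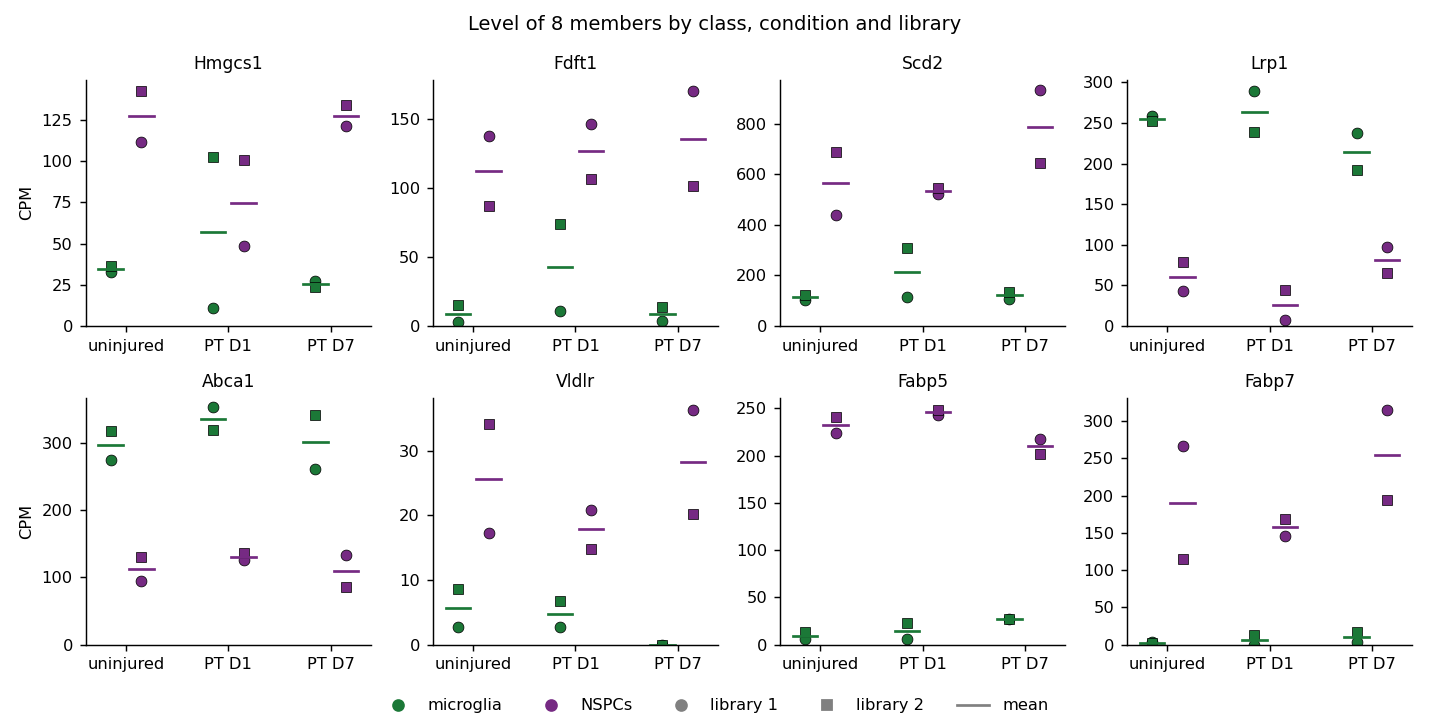
Level in CPM (y axis) of 8 members in each library by condition (x axis), with microglia and NSPCs in separate colors, 1 point per library and the mean as a line. PT D1 library 2 is the highest microglial library for Hmgcs1, Fdft1 and Scd2, and Lrp1 and Abca1 of microglia show no such library.

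The second question was whether stroke changed these genes within microglia. Of 4846 genes tested, 5.7% were called at PT D1 against uninjured, 0.165% at PT D7 against uninjured and 3.8% at PT D7 against PT D1. Only 9 members were abundant enough to test, and 0 of the 9 were called in any of the 3 comparisons. At an unadjusted p under 0.05, edgeR gave 2 of the 9 at PT D1, and 0 in both PT D7 comparisons, beside 1066, 355 and 907 of all genes in the same order. DESeq2 called 0 members as well.

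At PT D1 the fitted log2 change was above 0 for 9 of 9 tested members, with a median of 0.38 beside 0.04 over all genes. Scd2 had the lowest adjusted p, at a log2 change of 1.03 (SE 0.38, adjusted p = 0.148). The higher value came from PT D1 library 2 at 308 CPM, while library 1 at 117 lay between the uninjured libraries at 104 and 124. With a replicate block for the library numbers, of which those of PT D7 are uncertain, Scd2 was called at 0.97 (SE 0.29, adjusted p = 0.0295). Sorl1 had an unadjusted p under 0.05 (log2 change 0.71, adjusted p = 0.216).

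In microglia, 4 of 5 efflux and storage genes and 2 of 5 receptors were tested after stroke, and 0 were called. Lrp8, Vldlr, Scarb1 and Nr1h3 were too low to test there, so their change after stroke is not known. Abca1 had a fitted log2 change of 0.30 at PT D1 (95% interval -0.16 to 0.77), and its levels of 353 and 319 CPM at PT D1 reached those of the uninjured pair at 275 and 318. Lrp1 of 289 and 239 CPM at PT D1 lay on both sides of the uninjured values of 258 and 252. At PT D7, 0 of 9 members had an unadjusted p under 0.05, and the median log2 change was 0.24 beside -0.01 over all genes.

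Synthesis genes set 1 microglial library apart from the other 5. Uninjured microglia had sums of 178 and 182 CPM, PT D1 microglia 142 and 502, and PT D7 microglia 109 and 91.1. PT D1 library 2 was thus the only high library, and its partner from the same condition lay below the uninjured pair. With PT D1 library 1 left out, 17 members could be tested in microglia. Among them, the fitted log2 changes at PT D1 against uninjured were 3.01 for Fdft1, 2.69 for Sqle, 1.65 for Hmgcs1 and 1.52 for Scd2. These changes rest on a single PT D1 library that is assumed to vary like the other groups, so only their size is given. With the other PT D1 library left out, the log2 change of Hmgcs1 was -1.51.

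The cells behind that library belonged to the study's microglial cluster 3, named development-associated by the authors. Cluster 3 held 41 cells, of which 35 came from PT D1 library 2. In that library the 35 cells were set beside the 41 other microglia as a description, since the cluster was defined on these same transcripts. Intervals are exact Poisson 95% intervals that cover counting error only. The 13 synthesis genes summed to 892.5 CPM (196 UMIs, 772 to 1027) in cluster 3 and to 127 (29 UMIs, 85.1 to 183) in the other microglia, a ratio of 7.02. Cluster 3 gave 87.1% of the synthesis UMIs of the microglia in this library. Without cluster 3, the synthesis sum of PT D1 library 2 was 127 CPM, between 91.9 and 178 in the other 5 libraries. With cluster 3 kept in, 0 of 9 members tested were called at PT D1, and without it 0 of 8. Hmgcs1 then changed sign, with a log2 change of -0.99 (adjusted p = 0.324).

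All 13 synthesis genes were higher in cluster 3, and for 6 of them the intervals did not overlap. The share of all genes higher in cluster 3, or with intervals apart, was not counted, so these counts have no background. Hmgcs1 stood at 187 CPM against 21.9, and Fdft1 at 127.5 against 21.9. Sqle, the squalene epoxidase, stood at 109 against 13.2, and Msmo1 at 100.2 against 13.2. The sterol desaturase gene Sc5d stood at 86.5 against 13.2, and Fdps had 11 UMIs against 0. The interval of Hmgcs1 in cluster 3, 134 to 253 CPM, met the top of the 48.7 to 143 CPM seen in the 6 NSPC libraries.

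The other groups of genes differed less. Control genes summed to 200.4 CPM in cluster 3 and 87.6 in the other microglia, with the intervals of Insig1, itself a target of SREBP, apart at 50.1 and 4.38. Of the 4 fatty acid genes, Scd2 stood at 492 and 131.5 with intervals apart and Scd1 had 3 UMIs against 0, whereas Fasn was at 18.2 and 30.7 and Acaca at 4.55 and 8.76. Lipoprotein receptors summed to 382.5 and 359 and efflux and storage genes to 469 and 464.5, ratios of 1.07 and 1.01. The receptor sum joined members of both directions. Of the 5 receptors only Sorl1 was higher in cluster 3, at 127.5 CPM (84.7 to 184) against 48.2 (24.1 to 86.25). Lrp1 stood at 232 and 245, and Lrp8, Vldlr and Scarb1 had at most 3 UMIs each in cluster 3. No member of the receptor or efflux and storage groups had intervals apart.

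**Figure D4:**
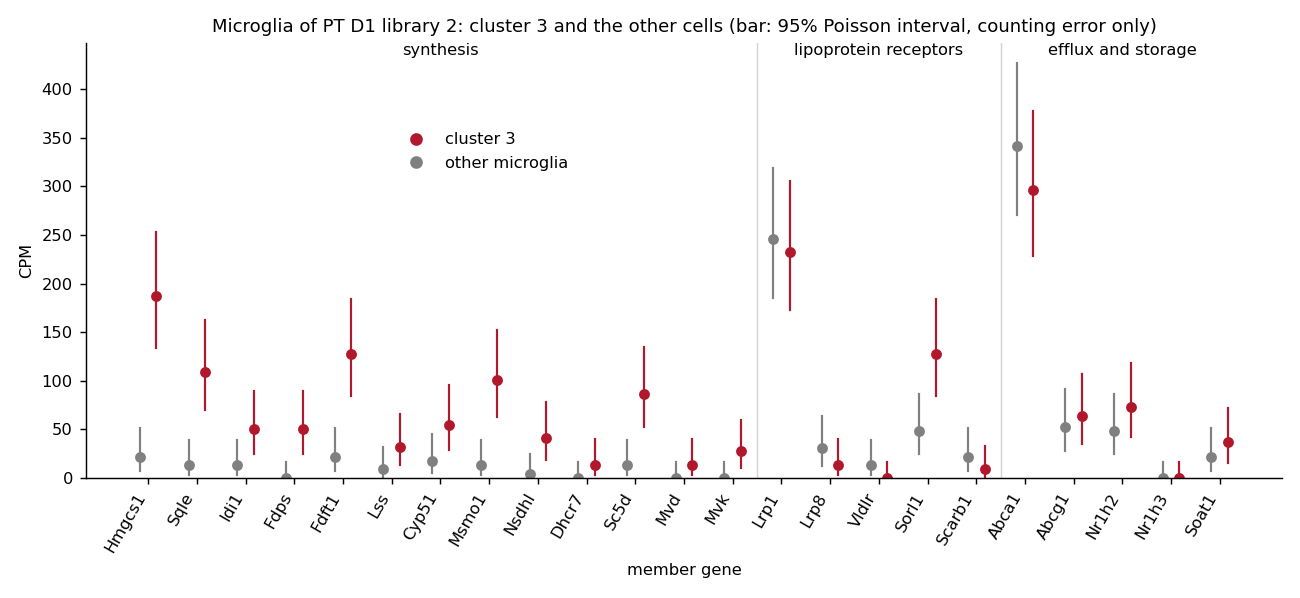
Level in CPM (y axis) of synthesis, receptor and efflux members (x axis) in cluster 3 cells and in the other microglia of PT D1 library 2, with exact Poisson 95% intervals as bars. Synthesis genes such as Hmgcs1, at 187 against 21.9, lie apart, and Abca1 and Lrp1 do not.

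The synthesis UMIs were spread over the cells of the cluster. A synthesis UMI was found in 31 of 35 cluster 3 cells (88.6%) and in 17 of 41 other microglia (41.5%). After thinning each cell to 1000 UMIs, which left no cell out, the counts were 14 of 35 (40.0%, exact binomial 95% interval 23.9% to 57.9%) and 7 of 41 (17.1%, 7.15% to 32.1%). Median depth was 5674 UMIs in cluster 3 and 4835 in the other cells, and the median mitochondrial share was 9.36% and 7.65%. The 6 cluster 3 cells of the other libraries held 17 synthesis UMIs, a level of 1043 CPM (607 to 1669).

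Markers of other cells were measured beside it. All 9 microglial markers were detected in cluster 3 and summed to 9203 CPM, against 13360 in the other microglia of the library. NSPC markers summed to 360 and 285 CPM, with Nes at 0 in both. Oligodendrocyte markers, from a cell type rich in sterol synthesis, summed to 524 and 149 CPM. Of these Mbp gave 355 and 78.9, whereas Mog was at 0 in both. Astrocyte markers summed to 159 CPM (111 to 222) and 87.6 (53.5 to 135), with intervals that overlapped. Endothelial markers stood at 36.4 and 4.38. Ependymal, neuron, and monocyte and macrophage markers stood at no more than 18.2 in either set of cells. Markers of the choroid plexus went the other way, at 36.4 and 868. Cluster 0, the homeostatic cluster, stood at 824.5 CPM for oligodendrocyte markers and at 172 CPM for the synthesis sum. Only 1 of its 175 cells came from PT D1, so it is no control for this library. The part of these other cells in the synthesis level was not tested.

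In NSPCs, 4907 genes were tested, of which 2.12% were called at PT D1 against uninjured, 0.0815% at PT D7 against uninjured and 0.632% at PT D7 against PT D1. Of 17 members tested, 0 were called in each of the 3 comparisons. At an unadjusted p under 0.05, edgeR gave 3 members, 0 members and 2 members, beside 724, 230 and 532 of all genes, and DESeq2 called 0 members. The median log2 change of the members was -0.17 at PT D1 and -0.07 at PT D7, beside 0.03 and 0.01 over all genes.

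The members with the lowest p at PT D1 all had fitted changes below 0. They were Lrp1 (log2 change -1.17, adjusted p = 0.287), Cyp51 (-1.12, adjusted p = 0.287) and Hmgcs1 (-0.77, adjusted p = 0.316). For Lrp1 and Hmgcs1, PT D1 library 1 was the lowest of the 6 NSPC libraries, at 6.96 and 48.7 CPM, on 19 cells. For Cyp51 both PT D1 libraries, at 20.9 and 32.6 CPM, lay below the other 4, at 48.5 to 68.9. The other PT D1 library lay within the uninjured range for Lrp1, at 44.4 beside 43.0 and 78.4, and below it for Hmgcs1, at 101 beside 112 and 143. Lrp1 was higher at PT D7 than at PT D1 by a log2 change of 1.19 that did not pass (adjusted p = 0.415). Lrp8 and Vldlr were too low to test within NSPCs. The make-up of the NSPCs differed too. Activated type B cells, a subtype described below, were 4 of 16 and 4 of 59 NSPCs uninjured. They were 6 of 19 and 19 of 52 at PT D1, then 0 of 15 and 12 of 61 at PT D7. The part of this make-up in the changes was not tested.

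A change that differs between the classes was tested as an interaction, where a value above 0 means a larger rise, or smaller fall, in microglia. Of 7514 genes, 0.24% were called at PT D1 and 0.0399% at PT D7. Of 28 members, 0 were called at either time, with 9 and 1 at an unadjusted p under 0.05 by edgeR, beside 514 and 292 of all genes. DESeq2 also called 0 members. All 9 tested synthesis genes had an interaction above 0 at PT D1, with a median of 1.54 beside -0.07 over all genes. Fasn had the lowest adjusted p (interaction 2.94, SE 0.85, adjusted p = 0.131), ahead of Fdft1 (2.03, SE 0.69, adjusted p = 0.294) and Srebf2 (2.32, SE 0.82, adjusted p = 0.349). The interaction of Fdft1 was 2.93 without PT D1 library 1 and changed sign without PT D1 library 2 (-0.0486). For Fasn, microglia stood at 22.2 and 24.6 CPM in the PT D1 pair (8 and 11 UMIs) and at 0 and 8.54 uninjured (0 and 4 UMIs). Its NSPC levels were 34.8 and 79.9 CPM at PT D1 and 103 and 90.5 uninjured. The fall in NSPCs was thus larger in PT D1 library 1, on 5 UMIs. Without cluster 3, an alternative added after the data were seen, the interactions of Hmgcs1, Fdps and Msmo1 went to -0.092, -1.13 and -0.16. Those of Cyp51 (1.2), Idi1 (1.15), Fdft1 (0.55), Sqle (0.18) and Mvk (0.10) stayed above 0, and Sc5d was too low to test. Fasn was then at 3.19 (adjusted p = 0.0847) and Srebf2 at 1.71 (adjusted p = 0.706).

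The 4 NSPC subtypes follow the lineage from quiescent type B cells, the dormant stem cells, through activated type B and type C cells to neuroblasts. There were 50 quiescent type B, 45 activated type B, 47 type C cells and 80 neuroblasts. As the subtypes were clustered on these transcripts, their levels are given with no test, pooled over libraries, followed by the range over libraries with at least 5 such cells.

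Scd2 stood out in quiescent type B cells at 1474 CPM (895.6 to 2108 over 3 libraries). It stood at 449 in activated type B cells (341 to 504), 399.6 in type C cells (291 to 638) and 426 in neuroblasts (271 to 548). No library of the other subtypes reached the lowest quiescent value. Srebf1 was ordered along the lineage, at 119.5, 86.5, 25.3 and 13.0 CPM. Its quiescent libraries ran from 55.0 to 202 and overlapped the activated ones at 77.6 to 104, so the first pair in this order did not differ beyond the spread.

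Of the efflux and storage genes, Abca1 and Soat1 were highest in quiescent cells. Abca1 stood at 269 CPM (202 to 307) against 98.5 (77.1 to 123) in activated type B cells, 63.2 (29.1 to 72.1) in type C cells and 82.6 (26.9 to 127) in neuroblasts. Soat1 stood at 133, 50.4, 15.2 and 19.6 CPM, with quiescent libraries at 50.5 to 154 and activated ones at 44.0 to 74.4, which overlapped. Nr1h2 stood at 43.2, 26.4, 45.5 and 41.3 CPM with no such order. Abcg1 had 1 to 4 UMIs per subtype, and Nr1h3 had 4 UMIs in quiescent cells and 0 in the others. The Abca1 level of quiescent cells was close to the 261 to 353 CPM of the microglial libraries.

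Synthesis genes as a group did not follow the lineage. They summed to 757 CPM in quiescent type B, 524 in activated type B, 736 in type C cells and 511 in neuroblasts. Single enzymes differed in their order. Msmo1 was highest in quiescent cells at 146 CPM (106 to 189), beside 62.5, 68.3 and 34.8, although type C libraries reached 133. Fdft1 was highest in type C cells at 159 CPM (133 to 233), beside 79.7 in quiescent cells (36.7 to 76.8 by library), 79.3 and 109. Hmgcs1 stood at 163, 69.7, 139 and 119.5 CPM, with library ranges that overlapped.

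Receptors split by stage. Vldlr was found mainly in neuroblasts, with 31 of the 38 NSPC UMIs in neuroblasts, at 67.4 CPM (30.1 to 149.5 over 5 libraries). It stood at 15.2 in type C cells (0 to 29.1) and 2.40 in activated type B cells, and no UMI was found in quiescent cells, which allows up to 9.96 CPM. Lrp1 was highest in quiescent cells at 136 CPM (88.3 to 183), lowest in activated type B cells at 19.2 (0 to 32.3) and at 65.2 in neuroblasts (31.8 to 120.3). Sorl1 stood at 69.7, 31.2, 2.53 and 10.9 CPM. Lrp8 showed no such order, at 33.2, 26.4, 43.0 and 23.9 CPM on 10 to 17 UMIs per subtype.

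The carriers ran in opposite directions. Fabp7 stood at 259 CPM (182 to 275) in quiescent and 372 (246 to 551) in activated type B cells, then at 78.4 (58.2 to 159.6) in type C cells and 10.9 (0 to 30.1) in neuroblasts. Fabp5 stood at 99.6 CPM (36.7 to 113.5) in quiescent cells and at 223, 286 and 276 in the later stages, where the lowest library was at 165.

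**Figure D5:**
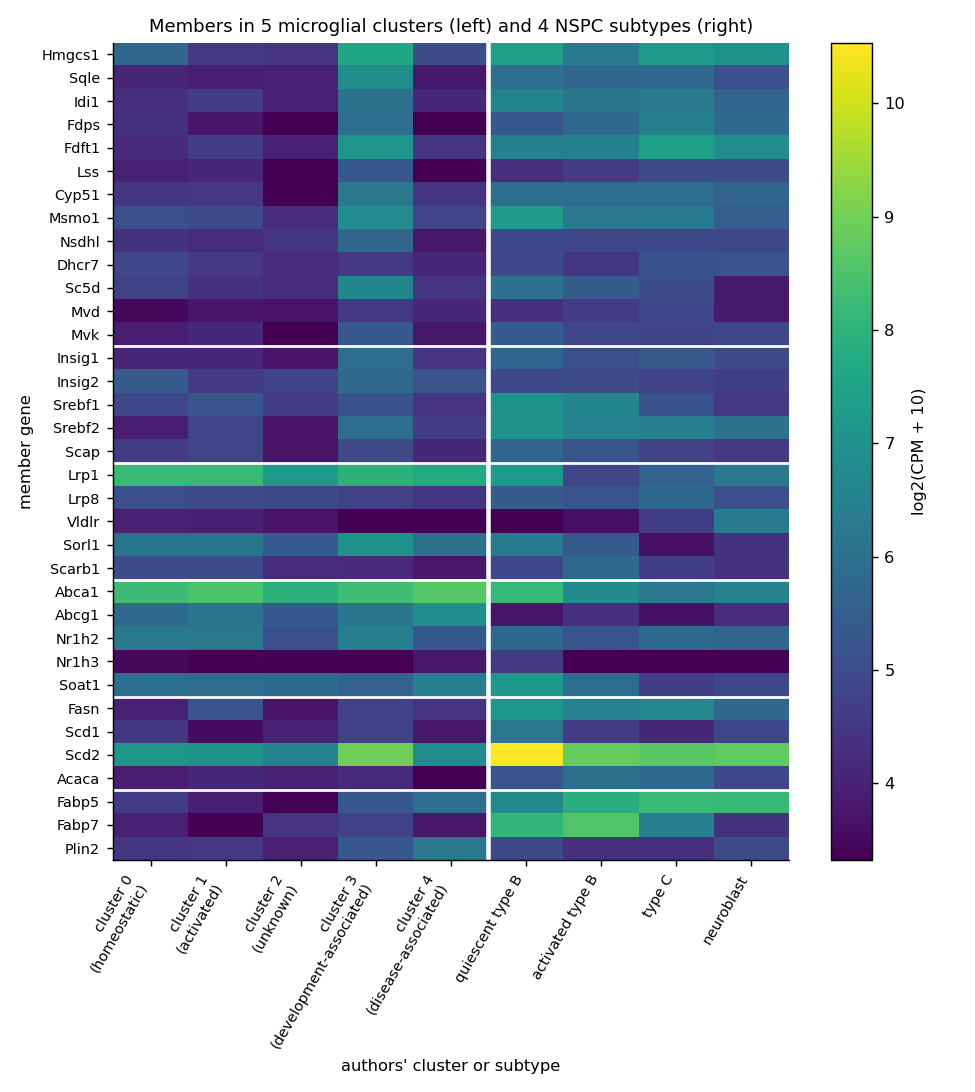
Level of each member (rows, by group) in the 5 microglial clusters and 4 NSPC subtypes (columns), colored by log2 of CPM plus 10. Lighter colors are higher, so that Hmgcs1 and Fdft1 are lighter in cluster 3 and the NSPC subtypes than in the other microglial clusters, and Scd2 is lightest in quiescent type B cells at 1474 CPM.

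Microglial clusters other than cluster 3 had synthesis sums of 172 CPM in cluster 0, 137 in the activated cluster 1, 71.0 in cluster 2 and 108 in the disease-associated cluster 4. All 104 cells of cluster 1 came from PT D1, so cluster and condition cannot be told apart there. Cluster 4, with 29 of its 37 cells from PT D7, was highest in Abcg1 at 108 CPM (37.0 to 192 over 3 libraries), against 29.6 to 59.3 in the other clusters, and its libraries overlapped theirs. Plin2, which coats lipid droplets, was at 63.2 CPM in cluster 4 (59.3 to 74.0) on 17 UMIs, and at 5.92 to 29.7 in the others. Abca1 was at 387 CPM in cluster 4 (241 to 514) and at 237 to 350 in the others, with overlapping libraries. Lrp1 was at 284 and 282 CPM in clusters 0 and 1 and lowest in cluster 2 at 139 (89.1 to 185).

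Other genes of the same pathways were read from 4 further lists. In microglia at PT D1, 1 of 11 tested ligand and receptor genes was called higher, 1 of 10 sterol transport genes lower and 1 of 13 fatty acid and droplet genes lower, while 0 of 3 other synthesis genes were called. Over all genes tested, 5.7% were called in that comparison, so these counts do not set the lists apart. Msr1, a scavenger receptor, went from 5.49 and 8.54 CPM to 164 and 105 (log2 change 4.28, adjusted p = 0.00315, or 0.0517 without uninjured library 1). The transporter gene Abca9 went from 143 and 117.5 to 44.5 and 31.3 (-1.66, adjusted p = 0.0209). Mlxipl, a carbohydrate-sensing activator of lipid synthesis, went from 112.5 and 115 to 44.5 and 26.8 (-1.57, adjusted p = 0.0216). Leaving out either uninjured library ended the calls of Abca9 (adjusted p = 0.183 and 0.0881) and Mlxipl (0.1535 and 0.143), and leaving out PT D1 library 2 ended that of Mlxipl (adjusted p = 0.0799). DESeq2 called neither Abca9 (adjusted p = 0.0696) nor Mlxipl (0.0930).

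At PT D7, 2 of 11 ligand and receptor genes were called higher than in uninjured microglia, and 0 genes of the other lists. The share called over all genes tested was 0.165%. Apoe, the main lipoprotein component of the brain, stood at 1729 and 2038 CPM uninjured, 2791 and 2586 at PT D1, then 4573 and 5963 at PT D7. The PT D7 libraries lay above all others, with a log2 change of 1.69 (adjusted p = 0.0220) against uninjured and of 1.06 (adjusted p = 0.0418) against PT D1. The first call ended when either uninjured library (adjusted p = 0.622 and 0.339) or either PT D7 library (0.0629 and 0.0716) was left out, and the second under 5 of the 6 omissions (0.0879 to 0.1415). Both also ended on leaving out cells with 3 or more markers of the other class (log2 change 1.11, adjusted p = 0.561, against uninjured and 0.54, adjusted p = 0.284, against PT D1) and without TMM scaling (adjusted p = 0.101 and 0.0757). The second ended too when only PT D1 and PT D7 were fitted (adjusted p = 0.0994). Lpl, lipoprotein lipase, stood at 63.1 and 94.0 CPM uninjured, 55.6 and 49.1 at PT D1, then 373 and 317 at PT D7. It rose by 2.35 (adjusted p = 0.00869) against uninjured and by 2.82 (adjusted p = 0.000948) against PT D1, and the first call ended without either uninjured library (adjusted p = 0.271 and 0.0735) or PT D7 library 1 (0.0685), and in cells without 3 or more markers of the other class (0.0888). Msr1 and Dab2, an endocytic adaptor, fell between PT D1 and PT D7, with log2 changes of -3.58 (adjusted p = 0.0119) and -1.82 (adjusted p = 0.0440). The call of Dab2 was kept only without PT D1 library 2 among the 6 omissions (0.0597 to 0.221 in the others). Dab2 was not called by DESeq2 (adjusted p = 0.0845), with only PT D1 and PT D7 fitted (0.0709) or in cells with at most 10% mitochondrial UMIs (0.0509).

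In NSPCs, 1 of 11 fatty acid and droplet genes was called at PT D1 and 0 genes of the other lists. The share called over all genes tested was 2.12%. Thrsp, a lipogenic nuclear protein, went from 68.9 and 48.3 CPM to 362 and 263.5 (log2 change 2.41, adjusted p = 0.00432), and stood at 0 and 134 at PT D7. DESeq2 did not call it (adjusted p = 0.758), nor did edgeR without the cells that held 3 or more markers of the other class (adjusted p = 0.561). Apoe was highest in the disease-associated cluster 4 at 12360 CPM, and among NSPCs in quiescent type B cells at 7862 CPM, beside 730 to 1475 in the other 3 subtypes.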

How the data were processed

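Single-cell mCEL-Seq2 counts of 658 cells were analysed in 6 libraries. The deposited matrix holds UMI counts, with cell barcodes and UMIs of 6 bases each. Per the submitters' processing notes, bcl2fastq 2.17.1.14 and the GRCm39 build were used, while aligner, counter and annotation were not given in the sources used here. Cells passed the authors' filters with over 1000 UMIs, at most 25% mitochondrial UMIs and UMI totals inside 3 median absolute deviations, and the authors deposited that percent for each cell. Cell classes, clusters and libraries were taken from the deposited annotation, of which 13 other columns were not used. The 92 spike-in rows held 0 UMIs, and 21136 genes had a UMI. No doublet caller was run, as wells were filled by sorting.

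Counts were summed per library and class and tested in R 4.3.3 with edgeR 4.0.16 (quasi-likelihood, TMM, filterByExpr, Benjamini-Hochberg adjustment at 0.05) and, as an alternative, DESeq2 1.42.0. Conditions were tested within each class over all 3 conditions, and classes and interactions with the library as a block. Standard errors are the log2 change divided by the square root of F, and 95% intervals are 1.96 SE. Members and lists were chosen with earlier results of these data known. Every member was accounted for, and the rule gave values by library for members of at least 100 CPM on average in a class, for members called in a condition comparison or interaction and for Lrp8 and Vldlr. Members called between classes were added after their values were seen, by library or as a range. From the other lists, Apoe and up to 5 genes called in a condition comparison were named. Library numbers were checked for pairing by correlating deviations from the group means. In microglia the 3 correlations were 0.22, 0.193 and 0.262, over the limit of 0.1, so the block is given where it changed a call. The numbers of the PT D7 libraries were read from the last digit of their cell names and are uncertain, and exchanging them would turn the sign of the 2 correlations with PT D7. In NSPCs they were 0.095, -0.0581 and -0.041. Alternatives covered DESeq2, no TMM, filters on counts, depth, mitochondrial share and foreign markers, clusters left out and each library left out. The scripts were tested on simulated data. Intervals and limits for a count of 0 (3 counts) cover counting error only. Promoter windows were read from RefSeq in GRCm38.p6 and not compared with the counts by position. Some genes of these pathways are not reported here.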

Additional observations from a re-analysis of the deposited data

Results flagged for a closer look

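The change at PT D1 differed between the classes for Thrsp, a gene outside the 35 members, with an interaction of -3.82 on the log2 scale (edgeR, adjusted p = 0.000656). NSPCs rose from 68.9 and 48.3 CPM to 362 and 263.5. The interaction was not called by DESeq2 (adjusted p = 1.00), without uninjured library 1 (adjusted p = 0.189) or without cells holding 3 or more markers of the other class (adjusted p = 0.0696).

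The change at PT D7 differed between the classes for Lpl, by an interaction of 2.95 (edgeR, adjusted p = 0.0244). The call held under 5 of 13 alternatives, with values of 2.39 to 3.45.

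The mixed cluster, kept out of every comparison, held 20 cells in which 24 of the 35 members had more than 3 UMIs. Scd2 stood there at 858 CPM, beside choroid plexus markers at 29540 and oligodendrocyte markers at 8257 CPM. These cells have no control group.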

How the results depend on the processing

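The cause of none of the changes below was tested. The counts of members called were 0 under every alternative for microglia at PT D7 against uninjured, for the 3 NSPC comparisons and for the PT D7 interaction. In microglia at PT D1 against uninjured, 1 member was called without a filter on low counts (Fdft1) and 1 with the replicate block (Scd2). In microglia at PT D7 against PT D1, 1 member was called without the filter, and the PT D1 interaction gave 0, omissions apart. Further calls in these 3 comparisons appeared only when PT D1 library 1 was left out. That omission leaves a single PT D1 library, so they are not counted here. In the comparison of classes, the 20 calls (7 higher in microglia, 13 in NSPCs) became 17 to 22 (6 to 8 and 10 to 14) with 1 library left out. They became 2 (1 and 1) with at least 10 counts in every library, where 2 members were tested. They became 11 (3 and 8) in cells with at most 10% mitochondrial UMIs and 12 in cells without 3 or more markers of the other class, with 7 higher in NSPCs, where 17 and 18 members were tested. The mitochondrial filter left 2 to 15 NSPCs per library and the marker filter 6 to 35. Without TMM, 4 were higher in microglia. Leaving out cluster 3, an alternative added after the data were seen for the comparison of classes and the interactions, gave 22 (6 and 16). The block changed no other member call, and the library numbers of NSPCs did not pair. Over all genes, calls ranged over the alternatives, omissions apart, from 106 to 639 for microglia at PT D1, from 0 to 43 at PT D7 and from 88 to 462 between them, against 276, 8 and 184. The block gave the highest of each. For NSPCs they ranged from 1 to 148, 0 to 8 and 0 to 69, against 104, 4 and 31. The classes gave 441 to 5499 against 4468, and the interactions 0 to 21 and 0 to 3 against 18 and 3. Without TMM the median of all genes moved to -0.25 for microglia at PT D7 and to -0.77 between classes. Low UMI counts limited the tests, since 26 of 35 members in microglia and 18 in NSPCs were too low to test.

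Some values changed sign, all of them short of the threshold under that alternative. Only Soat1 between classes had passed it before, and it became -0.053 without TMM. Log2 values after the change of sign follow, where deep cells have at least 2000 UMIs and marker-free cells lack 3 markers of the other class. DESeq2 gave no adjusted p for some members, and these are left out. For microglia at PT D1 against uninjured, the values were Hmgcs1 -0.99 without cluster 3. Omitting 1 library at a time gave for microglia at PT D1 against uninjured Hmgcs1 -1.51 to 1.65, Insig2 -0.31 to 1.00, Lrp1 -0.00192 to 0.29, Soat1 -0.56 to 0.91. For microglia at PT D7 against uninjured, the values were Hmgcs1 0.0542 and Lrp1 0.24 in marker-free cells. Single omissions gave for microglia at PT D7 against uninjured Lrp1 -0.30 to 0.21. For microglia at PT D7 against PT D1, the values were Abcg1 -0.0158 in low-mitochondrial cells, Abcg1 -0.37 in marker-free cells, Hmgcs1 0.77 and Scd2 0.0245 without cluster 3. There were also Insig2 -0.14 in deep cells. With libraries omitted singly, the ranges were, for microglia at PT D7 against PT D1 Abca1 -0.17 to 0.0774, Abcg1 -0.41 to 0.55, Hmgcs1 -1.87 to 1.26, Insig2 -0.17 to 0.87, Lrp1 -0.40 to 0.0464. Further ranges were Scd2 -1.20 to 0.15, Soat1 -0.36 to 1.15. For NSPCs at PT D1 against uninjured, the values were Abca1 -0.17, Fabp5 0.97, Fabp7 0.22 and Fdft1 -0.22 in marker-free cells, Fabp5 0.0715 and Soat1 0.0458 without TMM, Fabp5 0.0458 and Soat1 0.0137 unfiltered. Added to these were Fabp5 0.00188 in deep cells, Fabp5 0.18 and Srebf1 -0.31 without neuroblasts, Srebf2 0.0277 without quiescent cells. Single omissions gave for NSPCs at PT D1 against uninjured Abca1 -0.11 to 0.46, Acaca -0.0553 to 0.30, Fabp5 -0.0911 to 0.12, Fabp7 -0.76 to 0.36, Fdft1 -0.20 to 0.39. More ranges were Fdps -0.50 to 0.0774, Msmo1 -0.51 to 0.58, Scd2 -0.49 to 0.26, Soat1 -0.44 to 0.19, Srebf1 -0.0200 to 0.0901. The rest gave Srebf2 -0.66 to 0.11. For NSPCs at PT D7 against uninjured, the values were Acaca -0.41, Fasn 0.0454 and Fdps 0.0598 by DESeq2, Fabp5 0.45 and Fdft1 -0.0310 in marker-free cells, Hmgcs1 0.22, Msmo1 -0.0995 and Srebf2 0.0584 without quiescent cells. Then came Soat1 0.0111 without TMM, Soat1 0.00293 unfiltered. With libraries omitted singly, the ranges were, for NSPCs at PT D7 against uninjured Abca1 -0.52 to 0.0311, Fabp7 -0.21 to 0.91, Fasn -0.50 to 0.57, Fdft1 -0.22 to 0.58, Fdps -0.44 to 0.67. Further ranges were Hmgcs1 -0.31 to 0.20, Idi1 -0.85 to 0.23, Lrp1 -0.21 to 0.77, Msmo1 -0.22 to 1.02, Soat1 -0.46 to 0.37. More ranges were Srebf2 -2.83 to 0.22. For NSPCs at PT D7 against PT D1, the values were Acaca -0.0884, Fdft1 0.0545, Msmo1 0.27, Soat1 0.0569 and Srebf2 -0.17 by DESeq2, Fdft1 0.0430, Soat1 0.0504 and Srebf2 -0.11 with the replicate block, Fdft1 0.00379 fitted on the pair alone. Others were Fdft1 0.0618, Soat1 0.0574 and Srebf2 -0.0244 in deep cells, Fdft1 0.19 in marker-free cells, Fdps -0.22 and Idi1 -0.0410 without quiescent cells. There were also Msmo1 0.20 and Soat1 0.0739 without neuroblasts, Srebf2 -0.00119 without TMM. Single omissions gave for NSPCs at PT D7 against PT D1 Fdft1 -0.25 to 0.42, Fdps -0.23 to 0.91, Idi1 -0.29 to 0.69, Msmo1 -0.49 to 0.78, Soat1 -0.27 to 0.44. The rest gave Srebf2 -2.64 to 0.47. For the comparison of classes, the values were Lrp8 -0.47, Sc5d -0.35, Scap -0.68, Scarb1 -0.50 and Soat1 -0.0530 without TMM, Scap -0.0179 by DESeq2, Scap -0.0129 in deep cells. Added to these were Scap -0.0707 without cluster 3. With libraries omitted singly, the ranges were, for the comparison of classes Scap -0.38 to 0.46. For the PT D1 interaction, the values were Abca1 -0.0308 without TMM, Fabp5 -1.47 in marker-free cells, Fdps -1.13, Hmgcs1 -0.0919 and Msmo1 -0.16 without cluster 3. Then came Insig1 0.11 in deep cells, Lrp1 -0.30, Nr1h2 -0.56 and Sorl1 0.96 in low-mitochondrial cells. Single omissions gave for the PT D1 interaction Abca1 -0.24 to 0.39, Abcg1 -3.01 to 0.35, Fabp5 -0.56 to 1.19, Fabp7 -2.62 to 2.49, Fdft1 -0.0486 to 3.92. Further ranges were Insig1 -4.44 to 0.42, Insig2 -0.55 to 0.50, Nr1h2 -0.0821 to 0.67, Soat1 -0.33 to 0.81, Sqle -4.52 to 3.13. More ranges were Vldlr -0.39 to 1.08. For the PT D7 interaction, the values were Abcg1 -2.10, Hmgcs1 0.22 and Scd2 0.0476 in marker-free cells, Acaca 0.26 by DESeq2, Hmgcs1 1.19, Idi1 1.07, Msmo1 1.56 and Sqle 0.71 in low-mitochondrial cells. Others were Insig2 -0.20 and Sc5d -0.20 without TMM, Insig2 -0.39 in deep cells. With libraries omitted singly, the ranges were, for the PT D7 interaction Abca1 -0.0297 to 0.73, Abcg1 -2.25 to 3.46, Acaca -0.11 to 2.08, Fabp7 -0.0542 to 2.63, Fdft1 -1.80 to 1.69. The rest gave Fdps -5.36 to 0.26, Hmgcs1 -0.56 to 0.11, Insig1 -5.11 to 0.32, Insig2 -0.60 to 0.88, Lrp1 -1.11 to 0.13. Further ranges were Sc5d -0.0741 to 0.15, Scap -1.17 to 2.77, Scd2 -0.53 to 0.22, Sorl1 -0.48 to 0.63, Srebf2 -0.0607 to 3.13.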
